A study of Mus musculus with 6 samples.

Results

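Cytochrome P450 genes of families 1 to 3 were followed in the intestine of mice that lack SHP and of wild-type mice. Members were all gene symbols of the count files that name a P450 of family 1, 2 or 3 by number, subfamily letter and gene number, with at least 10 counts summed over the libraries, and 32 of 62 such symbols met that minimum, among 23284 genes in all. The minimum passed just above Cyp2c38, Cyp2j5 and Cyp2j13, with 9, 8 and 7 counts, and just below Cyp2f2, Cyp2a5 and Cyp2d34, with 10, 14 and 16 counts. The samples were 3 libraries of SHP-KO mice and 3 of wild-type (WT) mice, all from intestine described as jejunum and ileum of 8-week-old males that had been without food overnight and were then fed again for 6 h. SHP is the small heterodimer partner, a nuclear receptor without a DNA-binding domain that represses transcription through other nuclear receptors, and its gene is Nr0b2. The labels give neither the strain, nor the cells in which the gene was lost, nor the share of each segment. Nothing in them ties a library to its own animal, so a p-value here reflects variation among libraries that could be technical.

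Enzymes of P450 families 1 to 3 are heme proteins of the endoplasmic reticulum that add oxygen to drugs, plant compounds, steroids, bile acids and fatty acids. In the small intestine they sit mostly in enterocytes, where they meet swallowed compounds before the liver does. Their genes lie in clusters of close copies, and ligand-activated receptors control many of them: AhR (with its partner Arnt) acts on Cyp1 genes, CAR (Nr1i3) on Cyp2b genes and PXR (Nr1i2) on Cyp3a genes. SHP is known to bind several of these receptors.

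Total counts were 7956528 to 9289543 in SHP-KO libraries and 11265437 to 13511800 in WT libraries. Values below are counts scaled to library size (CPM) after TMM, a method that corrects library totals for composition, and intervals on counts cover counting error only. Nr0b2 had 1, 0 and 0 counts in SHP-KO libraries and 31, 14 and 23 in WT libraries. Libraries correlated across genes at 0.991 to 0.995 within a genotype and at 0.928 to 0.929 between genotypes. Of the fixed marker lists, 12 of 12 tested smooth muscle, 11 of 12 proximal small intestine, 9 of 15 enterocyte, 7 of 9 goblet, 6 of 6 adipocyte and 3 of 5 endothelial markers rose in SHP-KO. In 11 of 11 B cell markers and 8 of 12 ileum markers the level fell, as it did in 5 enterocyte markers, while the other 4 ileum markers rose. Among all tested genes 35.2% were higher and 35.4% lower. Summed proximal markers ranged over 29714 to 30183 CPM in SHP-KO and 5683 to 5781 CPM in WT libraries, and summed ileum markers over 6321 to 6490 CPM in SHP-KO and 22730 to 23206 CPM in WT libraries. The summed list of 12 hepatocyte markers was at 21.3 to 21.8 CPM in SHP-KO and 58.5 to 61.4 CPM in WT libraries, but Cps1 made up most of it, at 16.6 ± 1.06 CPM in SHP-KO and 55.1 ± 1.91 CPM in WT. Of its 4 tested genes Serpina1c was higher, Cps1 and Ttr were lower and Apoh did not pass. Alb had 15 counts in SHP-KO and 0 in WT, and Fgb, Fga and Cyp7a1 had none in any library. The part of tissue composition in the P450 differences was not tested, and in bulk tissue fewer cells of a type and less RNA per cell cannot be told apart.

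The P450 genes moved apart rather than in 1 direction. Of the 32 members, 22 passed the filter on low counts and were tested with edgeR's quasi-likelihood test, with p-values adjusted over all 12106 genes tested and a threshold of 0.05. Of these 22, 11 were higher in SHP-KO, 8 were lower and 3 did not pass, so that 86.4% were called, against 70.6% of all tested genes. By direction, 50.0% of the tested members were higher and 36.4% lower, against 35.2% and 35.4% of all tested genes. The median log2 fold change was 0.20 over the tested members and -0.01 over all tested genes. A called change of at least 2-fold was seen in 10 of the 22 (45.5%), against 20.0% of all tested genes. Of those, 6 were higher and 4 lower, against 11.9% and 8.15% of all tested genes. The 2 genotypes' libraries did not overlap in 21 of the 22 tested members, against 72.0% of all tested genes.

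**Figure D1:**
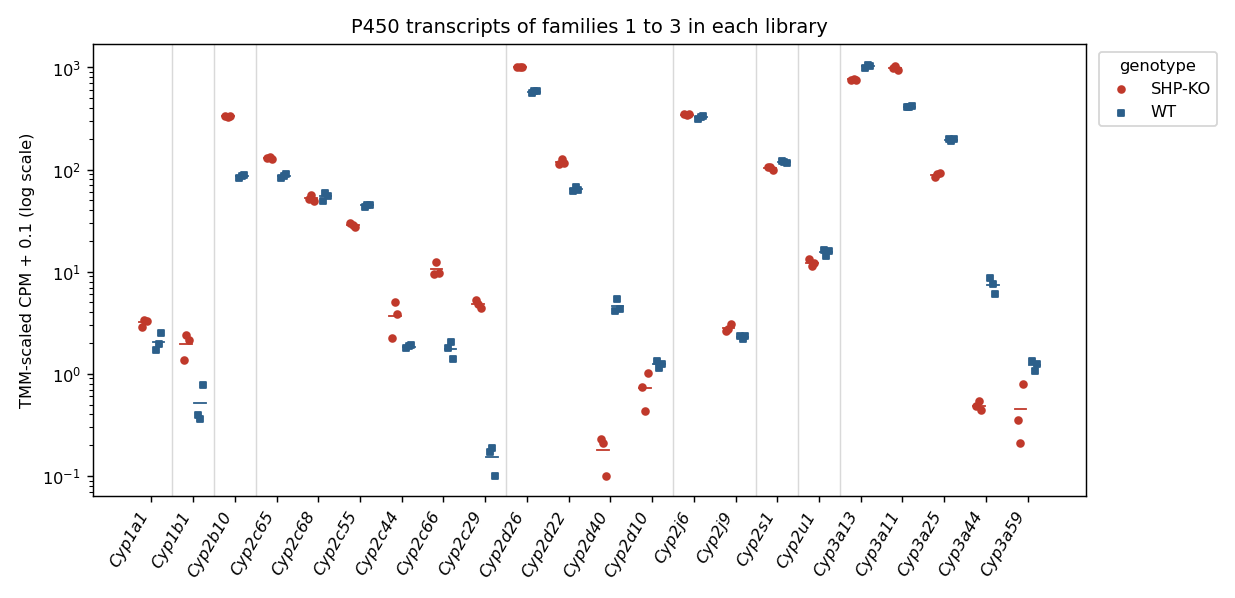
TMM-scaled CPM plus 0.1 on a log axis for the 22 members with a mean of at least 1 CPM in SHP-KO or WT, ordered by subfamily. Each point is a library (SHP-KO circles, WT squares) and each bar is the mean of 3; Cyp2c29 and Cyp2d40 are almost absent from 1 genotype each, while Cyp2c68 and Cyp2j6 sit at nearly the same level in both.

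**Figure D2:**
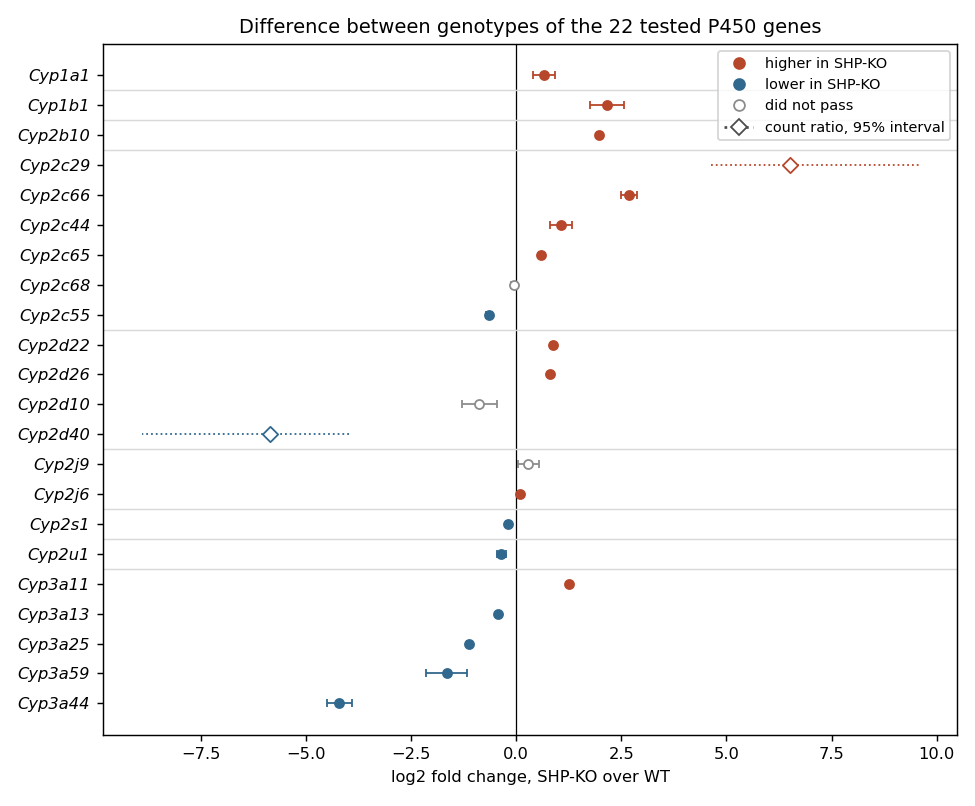
Log2 fold change (SHP-KO over WT) of the 22 tested members with its SE, by subfamily; for Cyp2c29 and Cyp2d40 the diamond is the ratio of summed counts with its 95% counting interval. Within Cyp3a, Cyp3a11 is to the right of 0 and the other 4 are to the left.

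A few genes held most of the P450 transcripts. Counts were divided by exon length to compare genes, and the summed level of the 32 members was 1887 ± 32.9 CPM per kb in SHP-KO and 1322 ± 31.8 CPM per kb in WT (SD, n = 3 each), or 1.43-fold higher in SHP-KO, a description without a test. Cyp2d26, Cyp3a11, Cyp3a13, Cyp2b10, Cyp2j6 and Cyp3a25 together held 88.6% ± 0.25 of that level in SHP-KO and 85.8% ± 0.13 in WT. In SHP-KO the order per length began with Cyp2d26 (616 ± 3.70 CPM per kb), Cyp3a11 (479 ± 20.0), Cyp3a13 (258 ± 4.92) and Cyp2b10 (178 ± 2.01), each apart from the next by more than their spread. In WT it began with Cyp2d26 (352 ± 11.2 CPM per kb) and Cyp3a13 (347 ± 14.3), which differed by less than their spread, followed by Cyp3a11 (201 ± 2.07), Cyp3a25 (97.7 ± 2.93) and Cyp2j6 (90.0 ± 2.45). Cyp2b10 stood at rank 4 in SHP-KO and rank 6 in WT, and Cyp3a25 at rank 7 in SHP-KO and rank 4 in WT.

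By subfamily, Cyp3a genes made up 41.4% ± 0.58 of the summed level per length in SHP-KO and 49.2% ± 0.29 in WT. The summed level of Cyp3a itself was higher in SHP-KO, at 782 ± 24.3 CPM per kb against 650 ± 12.0 CPM per kb in WT. Cyp2d genes made up 34.9% ± 0.30 in SHP-KO and 28.8% ± 0.30 in WT, and Cyp2b10 alone 9.45% ± 0.26 in SHP-KO and 3.46% ± 0.094 in WT. The shares of Cyp2c (6.45% ± 0.19 in SHP-KO, 7.56% ± 0.18 in WT), Cyp2j (5.21% ± 0.19 in SHP-KO, 6.90% ± 0.11 in WT) and Cyp2s (2.09% ± 0.068 in SHP-KO, 3.41% ± 0.16 in WT) were lower in SHP-KO, although the summed level of Cyp2c was 122 ± 5.72 CPM per kb in SHP-KO and 100.0 ± 4.69 CPM per kb in WT. The summed level of Cyp2j was 98.2 ± 1.96 CPM per kb in SHP-KO and 91.2 ± 2.48 in WT. That of Cyp2s was 39.5 ± 1.66 CPM per kb in SHP-KO and 45.1 ± 1.20 in WT.

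**Figure D3:**
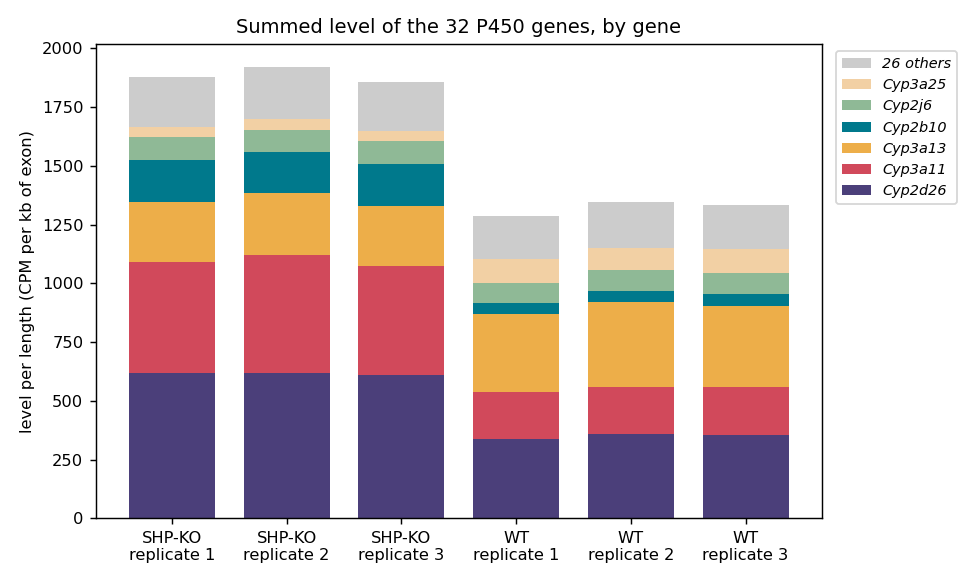
Stacked level per length (CPM per kb of exon) of the 32 members in each library, with the 6 members of highest level in WT in colour and the 26 others in grey. All 3 SHP-KO bars reach 1858 to 1923 CPM per kb and all 3 WT bars 1285 to 1346; the Cyp3a11 and Cyp2b10 segments are taller and the Cyp3a13 and Cyp3a25 segments shorter in SHP-KO.

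Cyp3a, the subfamily of the broad-range drug and steroid oxidases, changed its leading member. Cyp3a11, the main PXR target among mouse Cyp3a genes, had 978, 1027 and 946 CPM in SHP-KO libraries, against 410.3, 410.0 and 417.5 CPM in WT libraries. It was 2.38-fold higher in SHP-KO (log2 1.25, SE 0.028, adjusted p 1.2e-58, edgeR). Cyp3a13, the form best known from mouse intestine, moved the other way, with 752, 780 and 759 CPM in SHP-KO libraries and 984, 1068 and 1025 CPM in WT libraries. That fall was small (log2 -0.43, SE 0.027, adjusted p 7.2e-26, edgeR). In edgeR's exact test, where the coefficient of variation (CV) between libraries is set to 0.2 instead of estimated, its adjusted p was 0.14. The genotypes did not overlap for either gene, all SHP-KO libraries being above WT for Cyp3a11 and below WT for Cyp3a13. Per length, Cyp3a11 stood at 1.87, 1.90 and 1.79 times Cyp3a13 in SHP-KO libraries and at 0.60, 0.55 and 0.59 times in WT libraries. Cyp3a11 was thus 61.2% ± 0.79 of the Cyp3a level in SHP-KO and 30.9% ± 0.59 in WT.

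The remaining Cyp3a members all fell. Cyp3a25, another form of mouse liver and intestine, had 85.3, 91.0 and 91.9 CPM in SHP-KO libraries and 198.2, 188.9 and 199.8 CPM in WT libraries, 2.19-fold lower in SHP-KO (log2 -1.13, SE 0.041, adjusted p 1.4e-42, edgeR). Cyp3a44, known from mouse liver as a form of females, had 0.38, 0.44 and 0.34 CPM in SHP-KO libraries, against 8.55, 7.54 and 5.97 CPM in the WT libraries of these males. Its counts were 10 in SHP-KO and 282 in WT, 18.4-fold lower in SHP-KO (log2 -4.20, SE 0.30, adjusted p 2.2e-22, edgeR). Cyp3a59 was a low transcript with 2, 1 and 6 counts in SHP-KO libraries and 17, 11 and 15 in WT libraries (log2 -1.65, SE 0.49, adjusted p 0.0021, edgeR). Its log2 difference was -2.59 without SHP-KO replicate 3, -1.49 without SHP-KO replicate 1 and -1.20 without SHP-KO replicate 2 (adjusted p 0.040, edgeR). Without WT replicate 1 or 3 Cyp3a59 did not reach the filter. The groups did not overlap for any of these 3 genes, with SHP-KO below WT in each. The other 4 Cyp3a symbols (Cyp3a16, Cyp3a41a, Cyp3a41b and Cyp3a57) had no count in any library.

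Cyp3a44, Cyp3a11, Cyp3a25 and Cyp3a59 follow each other on chromosome 5, from 146585559 to 146924859 (mm9), whereas Cyp3a13 lies apart at 138334161 to 138362847. In GENCODE coding sequences Cyp3a11 and Cyp3a44 were 94.9% identical and Cyp3a25 and Cyp3a59 97.5%, and all other Cyp3a pairs were between 75.5% and 77.3%. The near-identical pair Cyp3a11 and Cyp3a44 thus moved in opposite directions, and the pair Cyp3a25 and Cyp3a59 moved in the same one. Reads that match several places were not counted, and of the 100-base windows of each transcript 0.31% in Cyp3a11, 5.37% in Cyp3a44, 6.05% in Cyp3a25 and 5.61% in Cyp3a59 occurred unchanged in another gene's transcript, against none in Cyp3a13. Counts of Cyp3a44, Cyp3a25 and Cyp3a59 are uncertain to that extent.

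The 250 bases before the annotated start of the 5 Cyp3a members set the upstream sequence of each gene beside the direction in which it moved. They come from RefSeq (GRCm38.p6) and run 5′ to 3′ in the direction of the gene, with AGGTCA, the core hexamer that many nuclear receptors bind, or its reverse complement in capitals. The windows are chr5:145879855-145880104 for Cyp3a11, chr5:145805875-145806124 for Cyp3a44, chr5:146009619-146009868 for Cyp3a25 and chr5:137921620-137921869 for Cyp3a13 (all minus strand), and chr5:146079008-146079257 for Cyp3a59 (plus strand).
Cyp3a11: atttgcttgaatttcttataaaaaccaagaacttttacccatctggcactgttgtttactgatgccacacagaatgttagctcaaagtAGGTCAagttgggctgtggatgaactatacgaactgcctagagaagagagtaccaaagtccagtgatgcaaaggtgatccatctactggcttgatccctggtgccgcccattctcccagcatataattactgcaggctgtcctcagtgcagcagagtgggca
Cyp3a44: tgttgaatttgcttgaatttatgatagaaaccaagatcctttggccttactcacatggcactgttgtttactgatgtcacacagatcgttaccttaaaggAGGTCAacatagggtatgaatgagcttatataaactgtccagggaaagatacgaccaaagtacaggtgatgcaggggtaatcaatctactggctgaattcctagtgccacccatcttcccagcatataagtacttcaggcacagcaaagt
Cyp3a25: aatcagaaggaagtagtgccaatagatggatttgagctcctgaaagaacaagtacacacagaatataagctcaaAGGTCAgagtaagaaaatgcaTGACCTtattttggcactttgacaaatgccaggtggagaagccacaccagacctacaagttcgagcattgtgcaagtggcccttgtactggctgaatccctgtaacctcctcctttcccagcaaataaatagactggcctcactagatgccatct
Cyp3a59: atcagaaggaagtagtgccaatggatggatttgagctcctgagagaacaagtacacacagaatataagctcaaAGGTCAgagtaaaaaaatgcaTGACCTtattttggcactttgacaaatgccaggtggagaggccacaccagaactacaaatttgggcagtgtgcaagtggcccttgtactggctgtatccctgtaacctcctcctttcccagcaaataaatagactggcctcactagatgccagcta
Cyp3a13: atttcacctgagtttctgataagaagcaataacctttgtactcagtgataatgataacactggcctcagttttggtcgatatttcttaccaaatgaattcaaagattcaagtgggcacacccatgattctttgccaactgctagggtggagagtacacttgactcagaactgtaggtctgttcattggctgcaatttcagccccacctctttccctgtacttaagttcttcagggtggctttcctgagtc
Cyp3a11 and Cyp3a44 each hold 1 AGGTCA, 162 and 150 bases before the start. Cyp3a25 and Cyp3a59 each hold AGGTCA and, further on, its reverse complement, and the window of Cyp3a13 holds neither. Aligned end to end, the windows of Cyp3a25 and Cyp3a59 were 94.8% identical and those of Cyp3a11 and Cyp3a44 72.5%, and the other Cyp3a pairs were between 52.2% and 57.2%. The hexamer was present in the window of the member that rose and in 3 of the 4 that fell.

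Cyp2b10, the textbook CAR target of mouse liver, was the subfamily's only member and rose in SHP-KO. Its libraries held 337, 329.7 and 335 CPM in SHP-KO, against 81.8, 85.8 and 89.0 CPM in WT, a 3.90-fold rise (log2 1.96, SE 0.037, adjusted p 2.7e-64, edgeR). All SHP-KO libraries lay far above all WT libraries. The other 4 Cyp2b symbols had 1 count among them in all libraries. Cyp2b10 spans 26682683 to 26711643 on chromosome 7 (mm9), and none of the 100-base windows of its transcript occurred in another gene's transcript.

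Cyp2c genes, which oxidise drugs and turn arachidonic acid into epoxides and hydroxy acids, gave 4 rises, 1 fall and 1 that did not pass among 6 tested. Cyp2c65, the most abundant Cyp2c transcript per length, had 129.0, 134 and 127 CPM in SHP-KO libraries and 83.1, 86.8 and 89.6 CPM in WT libraries (log2 0.59, SE 0.043, adjusted p 6.7e-22, edgeR). At the set CV of 0.2 its adjusted p was 0.051 (edgeR exact test). Cyp2c66, its close copy, had 9.42, 12.4 and 9.51 CPM in SHP-KO libraries and 1.68, 1.93 and 1.28 CPM in WT libraries, 6.44-fold higher in SHP-KO (log2 2.69, SE 0.19, adjusted p 9.7e-23, edgeR). The 2 genes were 96.3% identical in coding sequence, and 7.82% of the windows of Cyp2c65 and 9.34% of those of Cyp2c66 were shared, so each count can be short of reads. Cyp2c55, an arachidonic acid hydroxylase of the mouse gut, was the member that fell, with 29.7, 28.4 and 27.3 CPM in SHP-KO libraries and 43.3, 45.2 and 45.1 CPM in WT libraries (log2 -0.65, SE 0.070, adjusted p 1.1e-13, edgeR). For each of these 3 genes the genotypes did not overlap.

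Cyp2c29, an abundant P450 of mouse liver, was close to absent in WT. SHP-KO libraries held 41, 43 and 38 counts (5.22, 4.70 and 4.35 CPM) and WT libraries 1, 1 and 0, so that SHP-KO held 90.9 times as much per library size (95% interval of counting error 24.6 to 759, adjusted p 1.2e-21, edgeR). Of the hepatocyte markers, Serpina1c was also higher, at 1.96 ± 0.53 CPM in SHP-KO and 0.74 ± 0.18 CPM in WT, and Alb had 15 counts in SHP-KO and 0 in WT. Serpina1a (8 in SHP-KO, 5 in WT), Ahsg (3 in SHP-KO, 0 in WT) and Cyp8b1 (1 in SHP-KO, 0 in WT) had few counts. Ttr and Cps1 were lower in SHP-KO, Apoh did not pass, Tat had 2 counts in SHP-KO and 12 in WT, and Fga, Fgb and Cyp7a1 had none; their part in the rise of Cyp2c29 was not tested. Cyp2c44, named Cyp2c23 in GENCODE and an epoxide-forming enzyme of the kidney, was 2.10-fold higher (log2 1.07, SE 0.26, adjusted p 0.00014, edgeR) but scattered, at 2.16, 4.92 and 3.78 CPM in SHP-KO libraries and 1.68, 1.75 and 1.81 CPM in WT libraries. Cyp2c68 overlapped between the genotypes, at 51.2, 56.7 and 48.7 CPM in SHP-KO and 49.4, 58.8 and 55.4 CPM in WT (log2 -0.06, SE 0.063, adjusted p 0.40, edgeR). Its sister Cyp2c67, 97.1% identical in coding sequence, stayed under the filter with 15 counts in SHP-KO and 21 in WT. Scaled to library size that was 0.58 ± 0.11 CPM in SHP-KO and 0.57 ± 0.34 CPM in WT. Of their windows, 19.8% in Cyp2c68 and 23.7% in Cyp2c67 were shared with each other, Cyp2c40 or Cyp2c69, so the counts of this pair are the least certain of the Cyp2c group.

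Cyp2d genes, relatives of the human drug oxidase CYP2D6, differed by member. Cyp2d26, the most abundant P450 per length in SHP-KO and level with Cyp3a13 in WT, had 1015, 1018 and 1006 CPM in SHP-KO libraries and 558, 594 and 585 CPM in WT libraries, 1.75-fold higher in SHP-KO (log2 0.81, SE 0.026, adjusted p 1.2e-45, edgeR). Cyp2d22 rose by about as much, with 114, 126 and 116 CPM in SHP-KO libraries and 62.1, 68.1 and 62.7 CPM in WT libraries (log2 0.89, SE 0.048, adjusted p 4.8e-30, edgeR). The genotypes did not overlap for either gene. Cyp2d40 did the opposite and was almost lost in SHP-KO. It had 1, 1 and 0 counts in SHP-KO libraries and 55, 60 and 56 in WT libraries, so that WT held 57.4 times as much per library size (95% interval of counting error 15.6 to 478, adjusted p 1.8e-18, edgeR). Cyp2d40 lies beside Cyp2d26 on chromosome 15 (mm9), at 82590263 to 82594552 and 82620537 to 82624675, and no 100-base window of Cyp2d40 was shared. Their coding sequences were 58.7% identical over an alignment in which gaps count as mismatches. That of Cyp2d40 is 1014 bases long and that of Cyp2d26 1500, which by itself lowers the value.

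The other Cyp2d members were low. Cyp2d10 had 5, 3 and 8 counts in SHP-KO libraries and 17, 12 and 15 in WT libraries and did not pass (log2 -0.87, SE 0.42, adjusted p 0.057, edgeR), although its groups did not overlap and it passed without SHP-KO replicate 3 (adjusted p 0.028, edgeR) and without scaling factors (adjusted p 0.046, edgeR). Without SHP-KO replicate 2 its adjusted p was 0.30 (edgeR). Cyp2d9, a steroid hydroxylase of male mouse liver, was not tested, with 2 counts in SHP-KO and 30 in WT (10.1 times as much per library size in WT, 95% interval of counting error 2.55 to 87.0), and Cyp2d34 had 1 in SHP-KO and 15 in WT. Cyp2d10 and Cyp2d9 were 92.5% identical in coding sequence and shared 14.8% and 9.86% of their windows with other genes of the cluster. Cyp2d37-ps, a pseudogene by its symbol, had 6 counts in SHP-KO and 15 in WT, with overlapping groups.

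Cyp2j6, a fatty acid oxidase abundant in the gut, barely differed, at 350.9, 339 and 348 CPM in SHP-KO libraries and 314, 325 and 332 CPM in WT libraries. Its groups did not overlap, and the difference of 0.10 on the log2 scale (SE 0.031, adjusted p 0.0037, edgeR) did not pass without WT replicate 1 (adjusted p 0.070, edgeR), without scaling factors (adjusted p 0.077, edgeR), without the count filter (adjusted p 0.33, edgeR) or at the set CV of 0.2 (adjusted p 0.84, edgeR exact test). Cyp2j9 had 2.55, 2.63 and 2.98 CPM in SHP-KO libraries and 2.26, 2.10 and 2.27 CPM in WT libraries, and did not pass (log2 0.29, SE 0.25, adjusted p 0.29, edgeR). Cyp2s1, a P450 of epithelia, fell by 0.19 on the log2 scale (SE 0.043, adjusted p 5.7e-05, edgeR), with 106, 106 and 98.5 CPM in SHP-KO libraries and 121, 118 and 115 CPM in WT libraries. Cyp2u1, a fatty acid hydroxylase, fell by 0.35 (SE 0.11, adjusted p 0.0033, edgeR), with 13.2, 11.2 and 12.0 CPM in SHP-KO libraries and 16.1, 14.1 and 15.8 CPM in WT libraries. For Cyp2s1 and Cyp2u1 all SHP-KO libraries were below all WT libraries. Neither Cyp2s1 (adjusted p 0.54) nor Cyp2u1 (adjusted p 0.30) passed at the set CV of 0.2 in the edgeR exact test, and 10.4% of the windows of Cyp2u1 occurred in a second annotated gene.

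Family 1, the enzymes that AhR induces and that oxidise aromatic hydrocarbons, was present at low levels. Cyp1a1 had 2.80, 3.28 and 3.21 CPM in SHP-KO libraries and 1.61, 1.84 and 2.42 CPM in WT libraries, 1.58-fold higher in SHP-KO (log2 0.66, SE 0.25, adjusted p 0.015, edgeR). That call was lost without SHP-KO replicate 2 (adjusted p 0.052, edgeR), without WT replicate 1 (adjusted p 0.086, edgeR), in DESeq2 (adjusted p 0.072) and at the set CV of 0.2 (adjusted p 0.13, edgeR exact test). Cyp1b1, a form known from stromal and vascular cells as well as epithelia, had 10, 21 and 18 counts in SHP-KO libraries and 4, 3 and 9 in WT libraries, 4.46-fold higher in SHP-KO (log2 2.16, SE 0.40, adjusted p 1.7e-06, edgeR). All SHP-KO libraries were above all WT libraries for both genes, narrowly for Cyp1a1. Summed smooth muscle markers were at 1649 to 1676 CPM in SHP-KO and 437 to 443 CPM in WT libraries, and their part in the rise of Cyp1b1 was not tested. Cyp1a2 had no count in any library.

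GCGTG, the core that the AhR and Arnt pair binds, was looked for on both strands of the same upstream windows, and the windows of the members that rose and hold a match follow, with the match in capitals. The windows are chr9:57697363-57697612 (plus strand) for Cyp1a1, chr17:79715062-79715311 (minus strand) for Cyp1b1 and chr7:25897408-25897657 (plus strand) for Cyp2b10, in GRCm38.p6 from RefSeq.
Cyp1a1: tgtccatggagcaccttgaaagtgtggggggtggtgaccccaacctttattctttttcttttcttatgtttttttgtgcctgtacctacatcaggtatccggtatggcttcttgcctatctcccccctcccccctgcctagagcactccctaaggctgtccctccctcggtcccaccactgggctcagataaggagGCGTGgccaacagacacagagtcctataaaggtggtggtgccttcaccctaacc
Cyp1b1: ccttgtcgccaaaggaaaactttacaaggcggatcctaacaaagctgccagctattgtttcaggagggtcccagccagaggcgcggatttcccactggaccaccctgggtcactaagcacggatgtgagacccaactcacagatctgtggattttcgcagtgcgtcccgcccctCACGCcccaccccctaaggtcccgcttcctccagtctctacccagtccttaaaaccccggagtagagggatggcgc
Cyp2b10: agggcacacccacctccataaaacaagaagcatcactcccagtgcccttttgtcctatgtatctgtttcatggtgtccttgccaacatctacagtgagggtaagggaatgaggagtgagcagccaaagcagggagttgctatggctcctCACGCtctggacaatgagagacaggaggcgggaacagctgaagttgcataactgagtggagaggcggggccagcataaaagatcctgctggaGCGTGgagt
Cyp1a1 and Cyp1b1 hold 1 match each, 54 and 76 bases before the start, and Cyp2b10 holds 2, at 101 and 9 bases. Over the 27 members with a RefSeq window, GCGTG was present in 5 (18.5%), against 28.2% of 27025 promoters, the other 2 being Cyp2c68 and Cyp2j9, which did not pass. AGGTCA was present in 7 (25.9%), against 13.8% of all promoters, and besides the 4 Cyp3a genes these were Cyp2c29, Cyp2f2 and Cyp2t4. A match describes letters in the window, not a site that is used.

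The 10 members under the filter had means below 1 CPM in both genotypes and were not tested. Cyp2a5, a coumarin hydroxylase, had no count in SHP-KO libraries and 4, 3 and 7 in WT libraries, at least 3.13-fold lower in SHP-KO when a floor of 3 counts over the group is used. Cyp2e1, the ethanol oxidase of liver, had 5, 5 and 9 counts in SHP-KO libraries and 5, 0 and 0 in WT libraries. Cyp2j8 had 7, 3 and 10 counts in SHP-KO libraries and 0, 1 and 1 in WT libraries, 14.9 times as much per library size in SHP-KO (95% interval of counting error 3.62 to 131). Cyp2t4 had 11 counts in SHP-KO and 7 in WT, and Cyp2r1, a vitamin D 25-hydroxylase, 11 in SHP-KO and 28 in WT with overlapping groups. Cyp2f2, a lung enzyme, had 4 counts in SHP-KO and 6 in WT, or 0.15 ± 0.17 CPM in SHP-KO and 0.15 ± 0.066 CPM in WT. In 6 of the 10 the genotypes did not overlap in CPM, against 72.0% of all tested genes, a share taken over genes that passed the filter, as these 10 did not. Of these 6, 3 had SHP-KO higher (Cyp2e1, Cyp2j8 and Cyp2t4) and 3 had SHP-KO lower (Cyp2a5, Cyp2d9 and Cyp2d34). For Cyp2e1 and Cyp2t4 the lowest SHP-KO count equalled the highest WT count (5 and 3), so their separation rests on the scaling to library size.

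**Figure D4:**
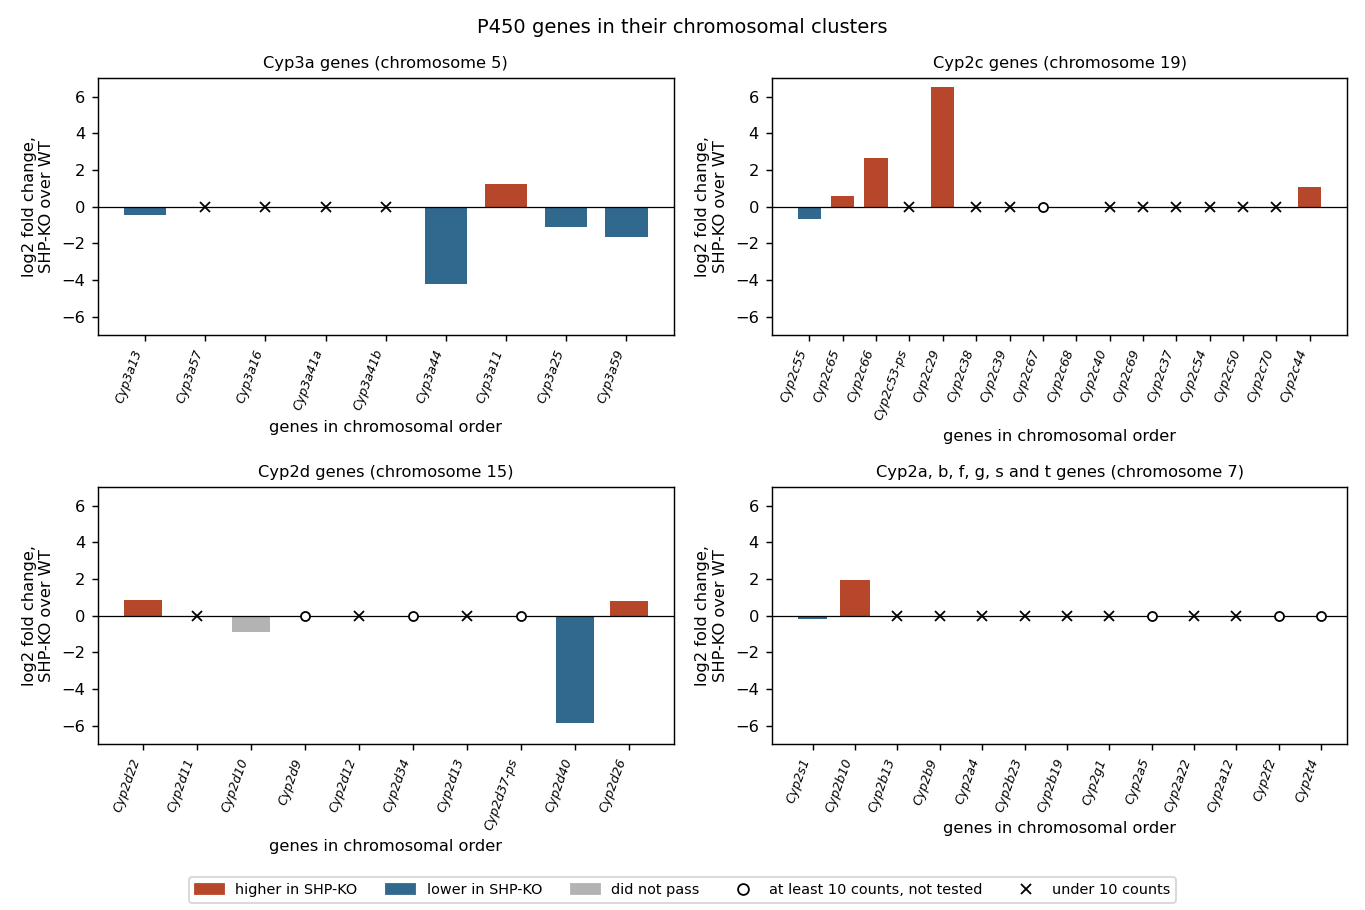
Log2 fold change (SHP-KO over WT) of P450 genes in chromosomal order in 4 clusters, with ratios of summed counts for Cyp2c29 and Cyp2d40. Circles mark members that were not tested and crosses symbols under 10 counts; rises and falls stand side by side within the Cyp3a, Cyp2c and Cyp2d clusters.

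In the Cyp3a, Cyp2c and Cyp2d clusters, members that rose and members that fell were neighbours. Along the Cyp2c genes of chromosome 19, Cyp2c55 fell and the 3 members that follow it, Cyp2c65, Cyp2c66 and Cyp2c29, rose. Of the 62 symbols, 19 had no count in any library, among them Cyp2c37, Cyp2c50, Cyp2c54, Cyp2b9, Cyp2b13, Cyp2a12 and Cyp1a2, forms best known from mouse liver.

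Receptors and regulators of P450 genes moved in both directions, with CAR higher and PXR lower in SHP-KO. In the fixed list 11 of 21 tested genes fell, 5 rose and 5 did not pass, against 35.4% lower and 35.2% higher among all tested genes, and the list's median log2 fold change was -0.30. Nr1i3 (CAR) had 69.0, 72.5 and 72.6 CPM in SHP-KO libraries and 13.3, 12.3 and 10.9 CPM in WT libraries (log2 2.55, SE 0.075). Nr1i2 (PXR) fell, at 122, 116 and 114 CPM in SHP-KO libraries and 167, 167 and 165 CPM in WT libraries (log2 -0.50, SE 0.039). Rxra, the shared partner of these receptors, averaged 153 ± 3.46 CPM in SHP-KO and 218 ± 4.94 CPM in WT (log2 -0.51, SE 0.036), and Hnf4a, which maintains many P450 genes in liver and gut, 495 ± 4.34 CPM in SHP-KO and 809 ± 13.4 CPM in WT (log2 -0.71, SE 0.027). At the set CV of 0.2, 3 genes of the list were higher and 6 lower. The 3 include Ahrr, the AhR repressor, which the main test did not include (adjusted p 0.0022, edgeR exact test). In the same exact test the rises of Nfe2l2 (adjusted p 0.16), Nr1h2 (adjusted p 0.62) and Nr1h3 (adjusted p 0.11) were lost. Neither Nr1i2 (adjusted p 0.080) nor Rxra (adjusted p 0.071) passed in the edgeR exact test.

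The largest called falls of the list were in Nr1h4, the bile acid receptor FXR (log2 -1.90, SE 0.058), and Nr5a2, the receptor LRH-1 that SHP is known to repress (log2 -1.49, SE 0.14). The AhR pair did not pass: Ahr averaged 5.83 ± 1.07 CPM in SHP-KO and 6.77 ± 0.57 CPM in WT (adjusted p 0.19, edgeR), and Arnt 42.7 ± 1.20 CPM in SHP-KO and 42.7 ± 0.31 CPM in WT (adjusted p 0.99, edgeR). Of the AhR battery, genes that AhR induces along with Cyp1a1, the 2 tested members fell, against 35.4% lower among all tested genes. Nqo1 fell by 0.83 and Tiparp by 0.18 on the log2 scale (SE 0.10 and 0.067). The call of Tiparp was lost in DESeq2 (adjusted p 0.052) and without SHP-KO replicate 1 (adjusted p 0.056, edgeR). Ahrr, the AhR repressor, was not tested at 1.27 ± 0.43 CPM in SHP-KO and 0.34 ± 0.082 CPM in WT, with no overlap of the groups; without the filter it was higher (adjusted p 0.00061, edgeR). Aldh3a1, an aldehyde dehydrogenase of the battery, was not tested either, with 0 counts in SHP-KO and 10 in WT, and without the filter it was lower (adjusted p 0.014, edgeR). Cyp1a1 and Cyp1b1 were higher in the same libraries.

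The redox partner list holds genes of electron transfer to P450 enzymes (Por, Cyb5, Cyb5b and Cyb5r3) and the P450 partners Pgrmc1 and Pgrmc2. Of its 6 tested genes 3 rose, 1 fell and 2 did not pass, against 35.2% higher and 35.4% lower among all tested genes. The list's median was 0.18 on the log2 scale. Por, the P450 reductase, averaged 226 ± 10.8 CPM in SHP-KO and 216 ± 3.02 CPM in WT with overlapping libraries (log2 0.06, SE 0.035, adjusted p 0.087, edgeR), and passed without SHP-KO replicate 1 (adjusted p 0.024, edgeR). Cyb5r3, a cytochrome b5 reductase, was at 437 ± 1.87 CPM in SHP-KO and 267 ± 3.47 CPM in WT (log2 0.71, SE 0.030), and Pgrmc2 rose by log2 0.70 (SE 0.064). Pgrmc1, a heme-binding P450 partner, fell by 0.49 on the log2 scale (SE 0.031) but did not pass at the set CV of 0.2 (adjusted p 0.080, edgeR exact test).

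Genes of heme synthesis and breakdown gave 3 higher, 2 lower and 7 not passing of 12, against 35.2% higher and 35.4% lower among all tested genes. Their median was 0.06 on the log2 scale. Alas1, which encodes the rate-limiting enzyme of heme synthesis, averaged 104 ± 1.75 CPM in SHP-KO and 102 ± 0.96 CPM in WT (log2 0.02, SE 0.043, adjusted p 0.68, edgeR). Alad, the next enzyme of the pathway, rose (log2 1.18, SE 0.062), at 84.2 ± 3.06 CPM in SHP-KO and 37.4 ± 5.05 CPM in WT. Ppox, a late enzyme, rose by log2 1.09 (SE 0.076), and Hmox1, which breaks heme down, had 0.55 ± 0.10 CPM in SHP-KO and 1.17 ± 0.19 CPM in WT (log2 -1.09, SE 0.43, adjusted p 0.019, edgeR), a call lost without SHP-KO replicate 2 (adjusted p 0.083, edgeR) and in DESeq2 (adjusted p 0.10).

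**Figure D5:**
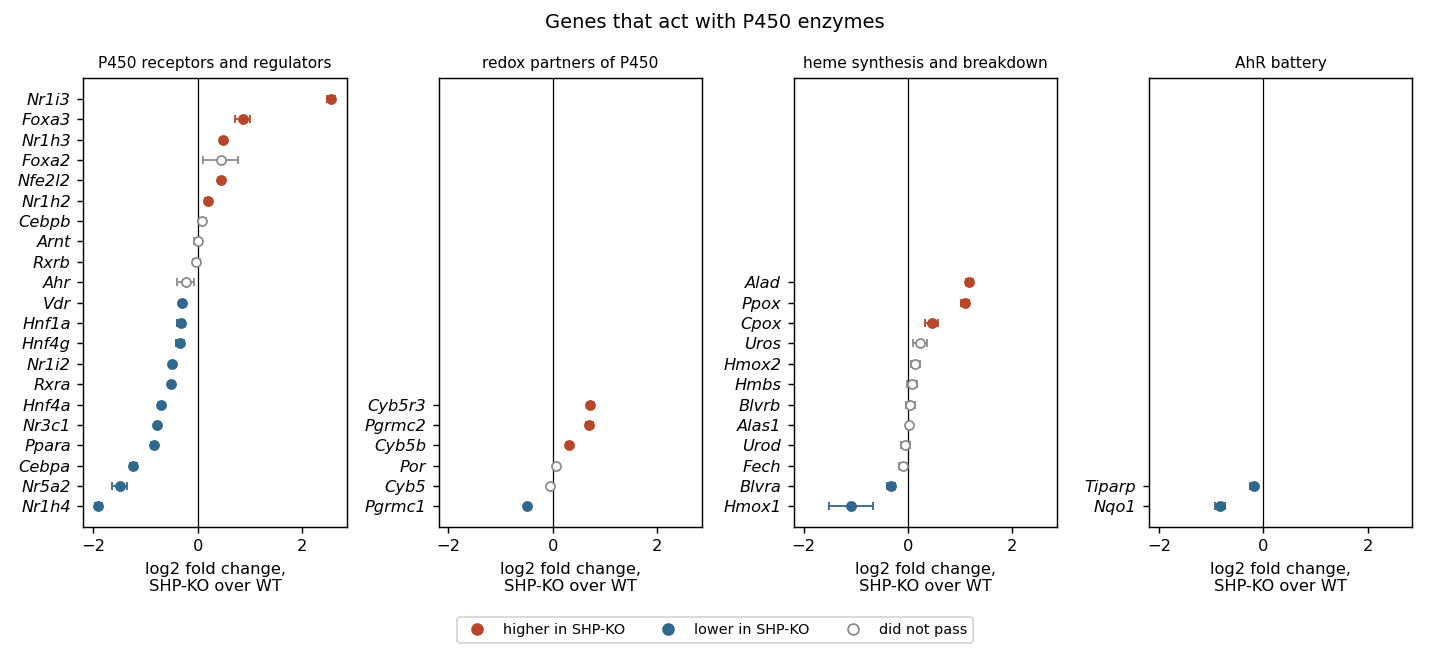
Log2 fold change (SHP-KO over WT) with its SE for tested genes of the 4 fixed lists of genes that act with P450 enzymes. Filled points passed the test and open points did not; Nr1i3 (log2 2.55) and Nr1h4 (log2 -1.90) are at the ends of the receptor list.

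The authors' deposited table lists 25 of the 32 members among 12939 genes. By its adjusted p-values 10 of them were higher and 5 lower in SHP-KO, against 34.6% of its genes called in either direction. The table's log2 fold changes and adjusted p-values of the tested members equal those of the exact test at the set CV of 0.2, and its calls include Cyp2e1 and Cyp2j8, which the filter kept out of the main test. The authors' deposited table gives log2 fold changes of 1.24 for Cyp3a11, -0.44 for Cyp3a13, 1.95 for Cyp2b10 and 0.79 for Cyp2d26.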

How the data were processed

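RNA of 3 SHP-KO and 3 WT libraries was compared. The deposited values are whole-number counts of reads in exons, summed by gene. The authors ran featureCounts 1.5.2, per the file headers, with strand ignored and with no option to count reads that align to several places. Per the submitters' processing notes, STAR 2.6.0c and the mm9 genome were used, along with Trimmomatic 0.38, FastQC 0.11.5 and bcl2fastq 2.17.1.14; how each was set is not given in the sources used here. One further table, deposited by the authors, compares SHP-KO with WT by log2 fold change, log2 mean CPM, p-value and adjusted p-value.

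Genes were kept by filterByExpr (minimum count 10), TMM factors were computed, and edgeR 4.0.16 in R 4.3.3 gave the quasi-likelihood F-test with genotype as its only term and Benjamini-Hochberg adjustment over all tested genes. The step was tested on simulated data. The P450 members and gene lists were chosen with earlier results of these data known. Members with a mean of at least 1 CPM in either genotype were described by library. From each list up to 3 called genes of largest change were named, and Ahr, Arnt, Nr1i2, Nr1i3, Rxra, Hnf4a, Por and Alas1 whatever their values; Ahrr, Aldh3a1 and the hepatocyte markers were named after their values were seen. For genes with 1 to 3 counts in a genotype, summed counts were compared with an exact 95% interval. No pair of libraries held identical counts, and libraries of a genotype differed by more than sampling noise (chi-square per degree of freedom 1.33 to 1.97).

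Promoter windows came from a RefSeq table (27 of 32 members matched) and transcripts from GENCODE, both on GRCm38 and joined by gene name only. Sequences were aligned with Biopython 1.88, and percent identity was taken over the whole alignment, gaps included. Alternatives in edgeR were scaling factors by relative log expression (RLE) in place of TMM, no scaling factors, no filter, the replicate number as a block, and each library left out. Further alternatives were DESeq2 1.42.0 and the edgeR exact test with the CV set to 0.2 on genes above 1 CPM in any library. Figures were drawn with matplotlib 3.10.9.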

Additional observations from a re-analysis of the deposited data

How the results depend on the processing

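Of 19 calls among the members, all 19 held with RLE scaling factors and with the replicate number as a block, 18 without scaling factors, without the filter and in DESeq2, and 13 in the exact test with the CV set to 0.2. No tested member changed sign under any of these settings or without any 1 library. Without the filter all 32 members were tested and 23 were called, against 54.3% of 17414 genes. Of the 23, 12 were higher and 11 lower, with Cyp2a5, Cyp2d9, Cyp2d34, Cyp2e1 and Cyp2j8 gained. The exact test also kept more genes, 12939 with 25 members in place of 12106 with 22, and called 15 members, the 13 and besides them Cyp2e1 and Cyp2j8, which the main test did not include. Of the 15, 10 were higher and 5 lower, against 11 and 8 in the main test, while over all genes 2460 were higher and 2023 lower. With 1 library left out, 9 to 11 members were higher and 7 to 9 lower. The median log2 fold change of all genes was -0.05 without scaling factors.

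In the lists, the exact test called 3 receptors and regulators higher and 6 lower. It called 2 redox partners and 2 heme genes higher and 0 of either list lower. The rises of Cyb5b (adjusted p 0.38) and Cpox (adjusted p 0.21) were lost in that exact test. In the AhR battery it called 1 gene higher and 1 lower, and the higher one, Ahrr, also counts among the receptors and regulators. Without the filter 1 gene of the AhR battery was higher and 3 were lower, and 2 redox partners were lower, as were 2 redox partners without scaling factors. DESeq2 called 1 heme gene and 1 gene of the AhR battery lower. With 1 library left out, the AhR battery gave 1 higher in every case (Ahrr, which then entered the test) and 1 to 2 lower, the redox partners 1 to 2 lower and the heme genes 1 to 2 lower; the cause was not tested.

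Shares of the summed CPM, without division by length, were 45.9% in SHP-KO and 54.2% in WT for Cyp3a, 28.3% in SHP-KO and 21.5% in WT for Cyp2d, and 5.74% in SHP-KO and 6.25% in WT for Cyp2c. They were 8.73% in SHP-KO and 10.8% in WT for Cyp2j, 8.34% in SHP-KO and 2.82% in WT for Cyp2b, 2.59% in SHP-KO and 3.90% in WT for Cyp2s, and 0.47% in SHP-KO and 0.64% in WT for the other subfamilies. Each kept its direction between the genotypes.

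Same-numbered libraries of the 2 genotypes did not deviate together (correlations 0.018, 0.021 and -0.0064). No deviation shared by number was thus seen, which cannot tell whether the libraries were paired in the experiment. The replicate block called 8573 genes in place of 8543, with 11 members higher and 8 lower. Depth limits the members under 1 CPM, where a few counts decide a ratio.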
